A study of Mus musculus with 14 samples.

Results

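DNA replication licensing genes load the replicative helicase onto DNA before S phase, and 10 of them were followed here through 14 mouse germ cell libraries. They are Mcm2, Mcm3, Mcm4, Mcm5, Mcm6 and Mcm7, which encode the subunits of the helicase, Cdc6 and Cdt1, which encode its loaders, Pcna, which encodes the sliding clamp of the polymerases, and Gins1, which encodes a subunit of the GINS complex that joins the helicase when it is activated. They were chosen by gene symbol, with earlier results of these data known, and all 10 were found among the 31111 genes counted in both stages. Polyadenylated RNA had been sequenced from sorted spermatogonia of P14 mice (postnatal day 14; DAPI-negative, B2M-negative and EpCAM-positive cells; 3 Dnmt3C KO/KO and 3 wild-type libraries). Spermatocytes came from mice older than 20 days and were sorted by Hoechst DNA content without dead cells (4 Dnmt3C KO/KO and 4 wild-type libraries). Dnmt3C encodes a DNA methyltransferase of male germ cells. The abbreviations KO and WT are used for Dnmt3C KO/KO and wild type. KO germ cells arrest at the pachytene stage of meiosis. A supplementary figure legend of the study states that the sorted KO spermatocytes lack some meiotic stages and have no round spermatids.

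In a dividing cell, ORC marks replication origins, CDC6 and CDT1 bring the ring of MCM2 to MCM7 to them in G1, and CDC45 and GINS later turn the ring into an active helicase. Spermatogonia divide by mitosis and copy their DNA at each division, and germ cells copy it a last time just before meiosis. Spermatocytes then pass through the long meiotic prophase without another S phase. Transcription of many licensing genes is known to be driven by E2F factors.

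The genes lie on 7 chromosomes (GRCm38, GENCODE M21), with Mcm3 and Mcm6, Pcna and Gins1, and Mcm5 and Cdt1 sharing one. Mcm2 lies at chr6:88883474-88898780, Mcm3 at chr1:20802968-20820312, Mcm4 at chr16:15623897-15637400 and Mcm6 at chr1:128331590-128359664, all on the minus strand. Mcm7 and Pcna are also on the minus strand, at chr5:138164583-138172422 and chr2:132249162-132253314. Mcm5 at chr8:75109569-75128439, Cdc6 at chr11:98907801-98923940, Cdt1 at chr8:122568015-122573554 and Gins1 at chr2:150905400-150931280 are on the plus strand. Mcm7 hosts the microRNA genes Mir25, Mir93 and Mir106b on its own strand and overlaps Cops6 and Ap4m1 on the opposite strand. Counting was strand-specific. Cdt1 overlaps Gm20388 on the same strand. Gm20388 was not listed among the genes counted in either stage, and whether they share exons, and so reads, was not checked. Pcna has processed pseudogenes (Pcna-ps1 and Pcna-ps2) that can share its reads. Pcna-ps1 was not listed in either stage, and Pcna-ps2 had 81 to 161 counts per library.

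RefSeq promoter windows (GRCm38.p6, 250 bases before to 50 after the annotated start) were given for 8 of the 10 genes, Mcm7 with 2 of them. Mcm4 and Gins1 had none. E2F-type letters (TTTCCCGC, TTTCGCGC, TTTGCCGC or TTTGGCGC on either strand) stood in the windows of 6 of the 8 genes, namely Mcm3, Mcm5, Mcm6, Mcm7, Cdc6 and Cdt1. Over all 32851 windows the share that held them was 2.265%. Mcm2 and Pcna held none. The core of the NRF1 motif (CGCATGCG, its own reverse complement) stood in Cdt1 alone, against 1.872% of all windows, and the CCAAT box (either strand) in 6 of 8 genes against 37.41%. Mcm7, which moved unlike the other MCM genes in the results that follow, held E2F letters as Mcm3, Mcm5 and Mcm6 did. A match is a description of the letters and not of binding.

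The 250 bases before the RefSeq starts of Mcm5, Mcm6, Cdt1 and Mcm2 are shown because these genes moved together between the groups while their motifs differed. All lie before the first base that GENCODE M21 gives for the gene. They read 5′ to 3′ on the strand of the gene, and capitals mark every E2F, NRF1 or CCAAT match.
Mcm5 (chr8:75109259-75109508, plus strand): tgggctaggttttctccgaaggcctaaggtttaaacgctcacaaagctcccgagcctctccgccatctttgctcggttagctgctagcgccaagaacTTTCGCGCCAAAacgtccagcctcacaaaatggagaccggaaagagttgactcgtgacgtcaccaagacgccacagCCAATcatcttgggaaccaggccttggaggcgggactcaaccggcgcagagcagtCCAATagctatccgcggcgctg
Mcm6 (chr1:128359706-128359955, minus strand): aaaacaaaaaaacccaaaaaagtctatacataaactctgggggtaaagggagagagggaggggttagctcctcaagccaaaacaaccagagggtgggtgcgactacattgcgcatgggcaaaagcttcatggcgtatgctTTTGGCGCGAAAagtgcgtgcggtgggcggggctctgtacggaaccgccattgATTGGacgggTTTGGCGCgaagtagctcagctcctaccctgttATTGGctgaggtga
Cdt1 (chr8:122567765-122568014, plus strand): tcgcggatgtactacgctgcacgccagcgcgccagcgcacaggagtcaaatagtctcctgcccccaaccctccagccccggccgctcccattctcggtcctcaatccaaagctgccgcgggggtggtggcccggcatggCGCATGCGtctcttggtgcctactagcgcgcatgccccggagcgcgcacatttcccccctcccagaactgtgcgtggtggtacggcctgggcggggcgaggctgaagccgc
Mcm2 (chr6:88898781-88899030, minus strand): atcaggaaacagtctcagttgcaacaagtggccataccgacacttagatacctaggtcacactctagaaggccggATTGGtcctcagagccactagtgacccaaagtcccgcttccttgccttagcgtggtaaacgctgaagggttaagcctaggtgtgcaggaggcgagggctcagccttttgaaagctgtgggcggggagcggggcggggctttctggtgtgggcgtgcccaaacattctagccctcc

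In Mcm5 the 12 capital bases TTTCGCGCCAAA hold an E2F match on each strand, and in Mcm6 the same is true of TTTGGCGCGAAA, which overlap by 4 bases in each case. The remaining E2F matches are shown as stretches of 26 bases around the site (capitals), since some lie at or after the start or inside the GENCODE gene.
Cdc6 (chr11:98908004-98908029, plus strand): cggtggagaGCGGGAAAtcgcctggg
Cdt1 (chr8:122568038-122568063, plus strand): aactaccttTTTGGCGCcatggcgca
Mcm3 (chr1:20820277-20820302, minus strand): acttccgtgGCGGGAAAacttgggaa
Mcm3 (chr1:20820263-20820288, minus strand): aaaacttgggaagtTTTGGCGCcaag
Mcm7 (chr5:138172032-138172057, minus strand): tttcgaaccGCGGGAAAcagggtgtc
Mcm7 (chr5:138171851-138171876, minus strand): gtgacgacgTTTCGCGCcaatttcgg

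Total counts ran from 40555726 to 53323651 per library, and the lowest count of any of the 10 genes was 62, of Cdt1 in WT spermatocyte replicate 4, so the spread between libraries, not depth, set the precision. Levels are CPM values (counts-per-million, scaled by TMM factors over all 14 libraries), and a call means that edgeR's two-sided quasi-likelihood test gave a gene a p under 0.01 after Benjamini-Hochberg adjustment. Dnmt3c itself had 58 to 116 counts in spermatogonia labelled KO, against 53 to 89 in those labelled WT. In spermatocytes the KO libraries had 52 to 57 counts and the WT libraries 11 to 28. These counts run over the whole gene and do not check the deletion. Spermatocyte replicates 1 and 4 were much alike within each genotype, with a median difference of 5.82 (KO) and 3.99 (WT) times sampling noise (chi-square over features) against 27.97 to 94.79 for the other spermatocyte pairs, and were kept apart. The labels number 4 spermatocyte libraries per genotype, while a figure caption of the study counts fewer biological replicates, so replicates 1 and 4 may not be independent. Results with them summed are given beside the counts of licensing genes and of all other replication genes. They are not given for single lists, markers or other genes named. Labels name no separate animals for the replicates, so p-values measure the spread between these libraries.

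The labelled cell types were checked against marker lists. Counts of marker genes called between KO and WT spermatocytes stand beside 28% of all genes called higher and 30.7% called lower there. Kit and Stra8, markers of differentiating spermatogonia, were at 226 to 358 and 137 to 271 CPM in the spermatogonia libraries. In WT spermatocytes the summed level of 8 pachytene genes ran from 11200 to 20180 CPM, against 299.3 to 595 in KO spermatocytes, with 7 of 8 called lower in KO. All 8 spermatid genes were called lower in KO, and their summed level (7 of them, in both tables) was 58.71 to 1216 CPM in WT and 2.902 to 9.341 in KO. Of the 8 genes of differentiating spermatogonia, 5 were called higher and 1 (Dmrtb1) lower in KO spermatocytes. Their summed level was 284.1 to 742.6 CPM in KO and 688.6 to 1803 in WT, where Dmrtb1 alone made up most of it. Genes of cells outside the germ line stood higher in KO spermatocytes too, with 5 of 6 peritubular and stromal, 6 of 6 Leydig and 6 of 6 macrophage genes called. Of the 8 Sertoli genes 1 (Gata4) was called, also higher. The summed stromal level was 366.8 to 3943 CPM in KO and 34.92 to 45.57 in WT. In spermatogonia the summed pachytene level was 572, 1974 and 318.6 CPM in WT and 188.5, 198.7 and 163.2 in KO, without overlap. Ldhc was at 70.5, 370.9 and 17.97 CPM in WT and 1.815, 1.743 and 2.04 in KO, and none of the 8 pachytene genes was called there. In bulk libraries, fewer cells of a type and less RNA per cell cannot be told apart.

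No licensing gene differed between KO and WT spermatogonia beyond the spread of the replicates. None of the 10 was called, where 0.0436% of 20659 genes were called in this comparison, 0.0387% higher and 0.00484% lower. At an unadjusted p under 0.05 the count was also 0, as it was at the call threshold in DESeq2. The libraries of the genotypes overlapped for every one of the 10 genes, and the groups did not overlap for 12.1% of all genes. With the replicate number as a block 27 genes were called higher and 81 lower in place of 8 and 1, still with none of the 10. Whether the numbers pair these libraries is not settled. KO replicate 2 was more like WT replicate 3 (correlation of deviations from the group means 0.26) than WT replicate 2 (0.17).

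Mcm5, a subunit of the ring, had the largest difference of the 10 in spermatogonia, at 273.5, 361.9 and 400.8 CPM in KO and 269.6, 269 and 336.4 in WT. The log2 fold change was 0.21 ± 0.17 (SE). Gins1 had the lowest, -0.11 ± 0.23, with 20.15, 24.97 and 29.78 CPM in KO and 19.97, 30.68 and 28.2 in WT. Adjusted p was 1.00 for all 10, and the median log2 fold change of the 10 was 0.09 beside 0.02 over all genes. Replicate 3 held the highest value for all 10 genes in KO and for 9 of 10 in WT. The summed Sertoli level was lowest in replicate 3, at 1418, 556.6 and 404.8 CPM in KO and 1098, 575.4 and 299.8 in WT, and its part in these values was not tested. Cdt1, the loader that is degraded in S phase, was at 69.47, 89.81 and 108.9 CPM in KO and 75, 70.48 and 94.14 in WT.

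**Figure D1:**
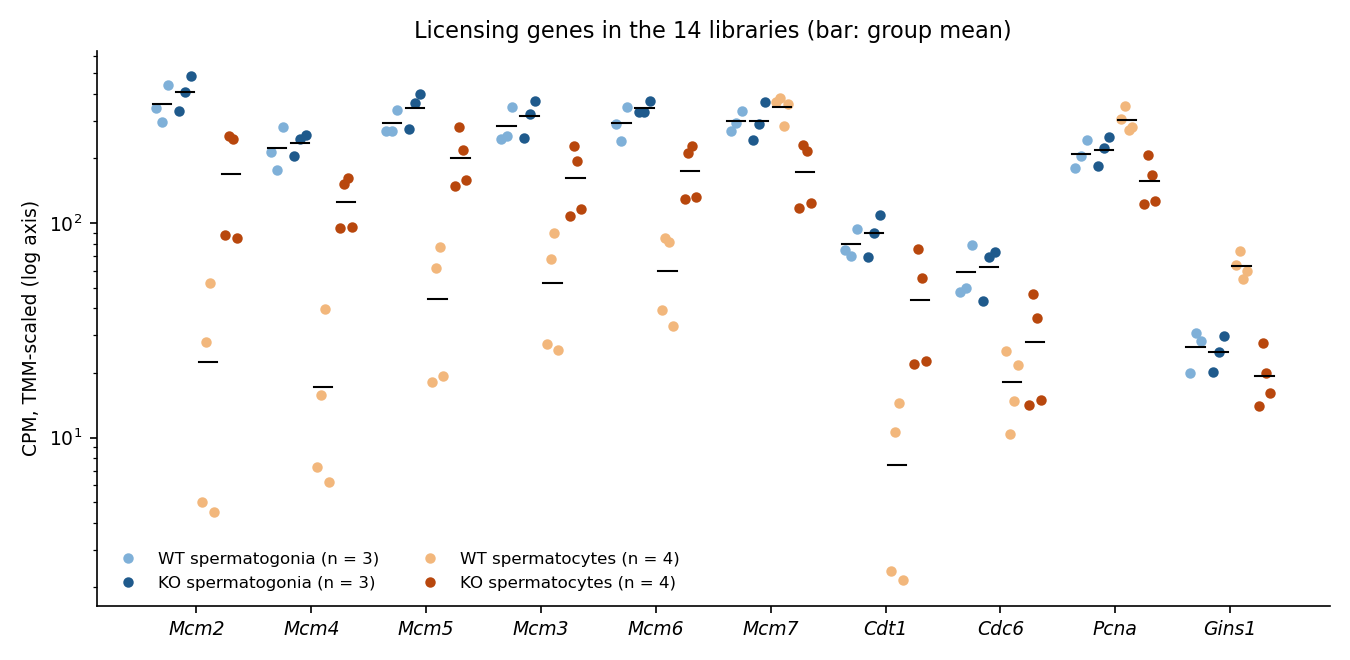
TMM-scaled CPM (log axis) of the 10 licensing genes in each of the 14 libraries, as points coloured by group, with a bar at the group mean. KO and WT spermatogonia overlap for every gene; for Mcm2 the 4 WT spermatocyte libraries (4.487 to 52.34) lie below all KO ones (85.56 to 253.1), while Mcm7, Pcna and Gins1 stand higher in WT than in KO spermatocytes.

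Per length, the 6 helicase subunits stood close together in spermatogonia. Divided by the exon length of the gene in kilobases (kb), mean levels in WT spermatogonia ran from 51.63 ± 10.77 CPM per kb (SD, n = 3) for Mcm2 to 75.31 ± 14.89 for Mcm3. In order they were Mcm3, Mcm5, Mcm7, Mcm6, Mcm4 and Mcm2, and no neighbours in that order were separated in range. Pcna stood above them at 87.16 ± 13.49, with a range that overlapped that of Mcm3. Cdt1 (25.44 ± 4), Gins1 (17.34 ± 3.699) and Cdc6 (11.29 ± 3.368) stood below, where Mcm2 and Cdt1, and Cdt1 and Gins1, did not overlap and Gins1 and Cdc6 did. With the longest transcript as the length, Mcm2 (3494 in place of 6956 bases) moved from last to first of the 6, at 102.8 ± 21.43. Under that length Cdt1 and Gins1 overlapped, and Gins1 and Cdc6 did not.

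Most licensing genes stood far lower in WT spermatocytes than in WT spermatogonia. In this comparison 8 of the 10 were called, 7 lower and 1 higher, where 52.5% of 24340 genes were called, 23.3% lower and 29.2% higher. The median of the 10 was a log2 fold change of -2.36 beside 0.02 over all genes. The 7 were Mcm2, Mcm3, Mcm4, Mcm5, Mcm6, Cdc6 and Cdt1, and in each of them the spermatocyte libraries lay below all spermatogonia libraries. Groups without overlap, in either direction, were found for 66% of all genes. Age and sort differ between the stages along with cell type, and these cannot be told apart.

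Mcm2 fell the most. It was at 342.1, 294.2 and 441 CPM in WT spermatogonia and at 5.032, 27.76, 52.34 and 4.487 in WT spermatocytes, a log2 fold change of -4.00 ± 0.73 (adjusted p = 0.000319). Replicates 1 and 4 were the low libraries and replicate 3 the high one. Mcm4 followed at -3.70 ± 0.52 (adjusted p = 5.16e-05), from 213.5, 177 and 280.2 CPM to 7.316, 15.76, 39.6 and 6.192.

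Cdt1 fell from 75, 70.48 and 94.14 CPM to 2.377, 10.58, 14.56 and 2.157 (-3.42 ± 0.62). Mcm5 (-2.73 ± 0.44), Mcm3 (-2.43 ± 0.41) and Mcm6 (-2.29 ± 0.33) fell by less. Their WT spermatocyte libraries covered 18.12 to 77.3, 25.6 to 89.61 and 33.18 to 85.33 CPM. Cdc6, the ATPase that recruits CDT1 and the MCM ring, fell by 1.71 ± 0.43 on the log2 scale (adjusted p = 0.00312), from 47.8, 50.02 and 79.35 CPM to 25.37, 10.43, 14.85 and 21.81. Among WT spermatocytes Cdc6 was highest in replicates 1 and 4, the libraries in which Mcm2, Mcm4 and Cdt1 were lowest.

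Mcm7, Pcna and Gins1 did not share this fall. Mcm7 was at 269.7, 292.8 and 331.1 CPM in WT spermatogonia and at 365.9, 381.3, 283.5 and 360.5 in WT spermatocytes, with overlapping ranges, a log2 fold change of 0.22 ± 0.25 and an adjusted p of 0.44. Pcna had 0.53 ± 0.21 (adjusted p = 0.0374) without overlap, from 179.5, 204.4 and 243.7 CPM to 306.7, 352.1, 271.1 and 279. Gins1 rose, from 19.97, 30.68 and 28.2 CPM to 63.99, 74.14, 54.83 and 59.48 (1.26 ± 0.27, adjusted p = 0.000989).

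The scaling bears on these 3 genes. With library totals in place of TMM factors the median of all genes moved from 0.02 to -0.76, Mcm7 and Pcna turned to -0.61 and -0.29, both uncalled, and Gins1 lost its call at 0.44. Relative to the median gene the values were 0.20 and 0.15 for Mcm7, 0.51 and 0.47 for Pcna and 1.24 and 1.20 for Gins1 under the 2 scalings. The 7 genes that fell were called under both. The call of Cdc6 was lost without WT spermatogonia replicate 3 (adjusted p = 0.0122) or WT spermatocyte replicate 2 (adjusted p = 0.0107) and with the replicate number as a block (-1.53, adjusted p = 0.0172). That of Gins1 was lost without WT spermatogonia replicate 1 (0.95, adjusted p = 0.0156). The other 6 calls held with each library left out and with the block. With spermatocyte replicates 1 and 4 summed all 8 calls stood, where 6422 of 23742 genes were called higher and 4492 lower.

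Within a library, the proportions of the 6 helicase transcripts need no scaling. Mcm7 made up 17.3 ± 1.697% (SD, n = 3) of their summed level per length in WT spermatogonia and 15.4 ± 0.8793% in KO spermatogonia. In WT spermatocytes its share was 78.24, 58.9, 44.71 and 79.39%, and in KO spermatocytes it was 16.68, 16.96, 17.16 and 16.9%. The WT spermatocyte libraries thus lay above all 10 other libraries. Mcm2 showed the opposite, with 0.6287 to 5.252% in WT spermatocytes, 7.412 to 12.46% in KO spermatocytes and 12.29 to 13.88% in the spermatogonia of both genotypes. With the longest transcript as length, the share of Mcm7 in WT spermatocytes was 70.43 ± 15.84% and in KO spermatocytes 20.21 ± 0.2484%.

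**Figure D2:**
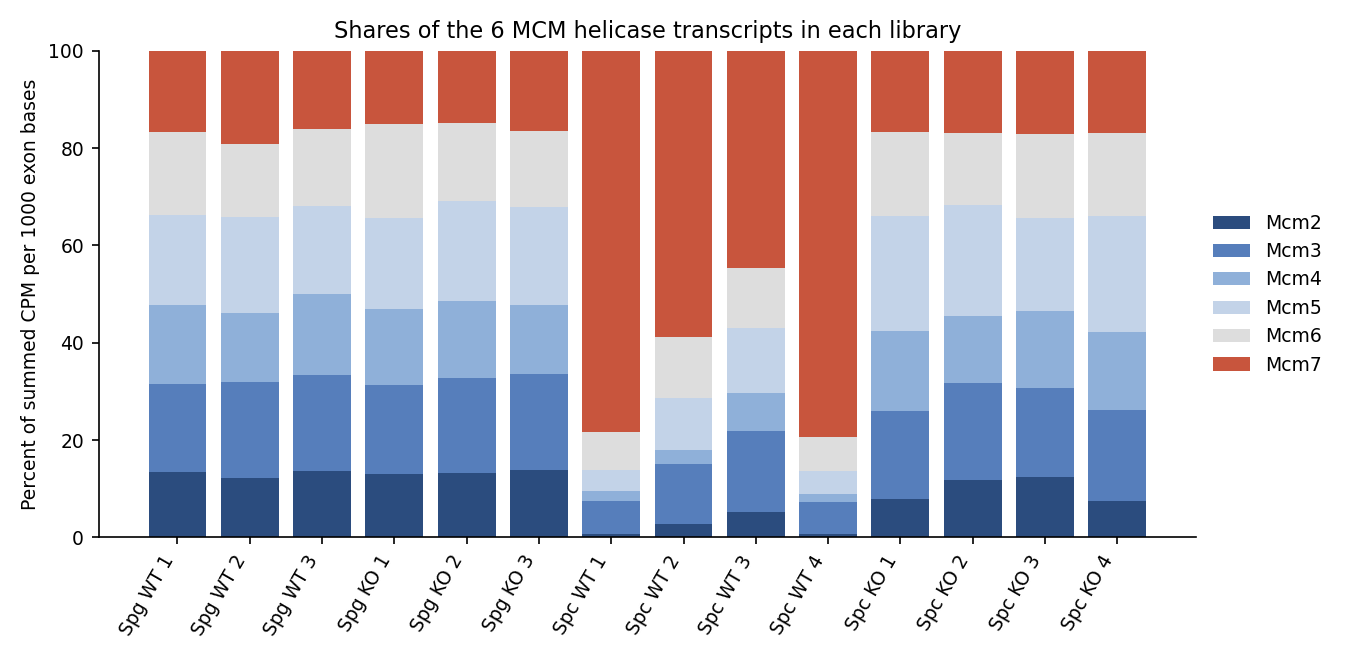
Stacked bars of the percent that each of Mcm2 to Mcm7 made up of their summed CPM per kb of exon, 1 bar per library. Mcm7 takes 44.71 to 79.39% in the 4 WT spermatocyte libraries and 14.81 to 19.22% in the other 10.

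Levels per length in WT spermatocytes put Pcna (125.9 ± 15.24 CPM per kb, SD, n = 4), Mcm7 (78.58 ± 9.889) and Gins1 (41.63 ± 5.443) above the rest, none of them overlapping its neighbour. Mcm3 (14.01 ± 8.379), Mcm6 (12.81 ± 5.865), Mcm5 (11.03 ± 7.501), Mcm4 (4.797 ± 4.324), Cdc6 (3.465 ± 1.288), Mcm2 (3.221 ± 3.265) and Cdt1 (2.363 ± 1.965) followed, and each overlapped its neighbour in that order. In KO spermatocytes the order was that of spermatogonia for the most part, from Pcna at 65.06 ± 16.6 and Mcm5 at 50.41 ± 15.11 to Cdc6 at 5.356 ± 3.089. There, Gins1 and Cdc6 were the lone pair of neighbours that did not overlap, and with the longest transcript as length it was Mcm4 and Gins1.

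Between KO and WT spermatocytes 9 of the 10 genes were called with all 8 libraries counted as replicates. With replicates 1 and 4 of each genotype summed, 4 were called (Mcm4, Mcm5, Mcm6 and Gins1). So summed, 3533 of 22276 genes were called higher and 5225 lower, and the 4 of 10 are near that share. With all libraries, Mcm2, Mcm3, Mcm4, Mcm5, Mcm6 and Cdt1 were higher, Mcm7, Pcna and Gins1 lower, and Cdc6 was not called. In this fit of all libraries 58.8% of 21919 genes were called, 28% higher and 30.7% lower. The 3 lower genes make up a share close to that, and the 6 higher ones a larger one. The 10 genes were chosen with earlier results of these data known, so this describes them and tests no excess. The median of the 10 was 1.63 beside 0.11 over all genes. The same 9 genes did not overlap between the genotypes, as did 68.4% of all genes.

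Mcm2 rose from 5.032, 27.76, 52.34 and 4.487 CPM in WT to 88.32, 253.1, 246.6 and 85.56 in KO, a log2 fold change of 2.96 ± 0.78 (adjusted p = 0.00673). Mcm4 rose from 7.316, 15.76, 39.6 and 6.192 CPM to 94.68, 151.2, 161.7 and 95.44 (2.91 ± 0.56, adjusted p = 0.00112). Cdt1 rose from 2.377, 10.58, 14.56 and 2.157 CPM to 21.95, 75.45, 55.71 and 22.73 (2.61 ± 0.68, adjusted p = 0.00636). In each of these genes replicates 2 and 3 were above replicates 1 and 4 in both genotypes, and the lowest KO library was still above the highest WT library.

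Mcm5 was at 149.5, 279.4, 218 and 158.2 CPM in KO and 18.12, 61.46, 77.3 and 19.34 in WT (2.24 ± 0.47, adjusted p = 0.00193). Mcm3 was at 107.9, 228.5, 194.2 and 116.4 CPM in KO and 27.35, 67.72, 89.61 and 25.6 in WT (1.66 ± 0.43, adjusted p = 0.0058). Mcm6 was at 129.2, 211.3, 227.9 and 132.4 CPM in KO and 39.2, 85.33, 81.3 and 33.18 in WT (1.59 ± 0.34, adjusted p = 0.00216). In all 3 genes each KO library stood above every WT library.

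Gins1 fell by 1.68 ± 0.26 on the log2 scale (adjusted p = 0.000321), with 13.97, 27.61, 19.94 and 16.07 CPM in KO and 63.99, 74.14, 54.83 and 59.48 in WT. Mcm7 was at 117.8, 230.2, 216.1 and 124.1 CPM in KO and 365.9, 381.3, 283.5 and 360.5 in WT (-0.997 ± 0.26, adjusted p = 0.00631). Pcna was at 123.1, 208.1, 166.6 and 126.7 CPM in KO and 306.7, 352.1, 271.1 and 279 in WT (-0.93 ± 0.21, adjusted p = 0.003). With library totals the median of all genes moved from 0.11 to 0.79, and none of the 3 was called, at -0.95 for Gins1 (adjusted p = 0.0184), -0.25 for Mcm7 and -0.21 for Pcna. Relative to the median gene Mcm7 was at -1.11 under TMM and -1.04 under library totals, Pcna at -1.04 and -1.0 and Gins1 at -1.79 and -1.74.

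Cdc6 had 14.17, 46.87, 36.05 and 14.93 CPM in KO and 25.37, 10.43, 14.85 and 21.81 in WT. The log2 fold change was 0.63 ± 0.46, with an adjusted p of 0.237. Library totals put it at 1.43 (adjusted p = 0.0224). Summing replicates 1 and 4 gave 0.99 (adjusted p = 0.128), and neither was a call. Its replicates ran in opposite ways in the genotypes. In KO replicates 2 and 3 were the high ones, and in WT replicates 1 and 4.

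**Figure D3:**
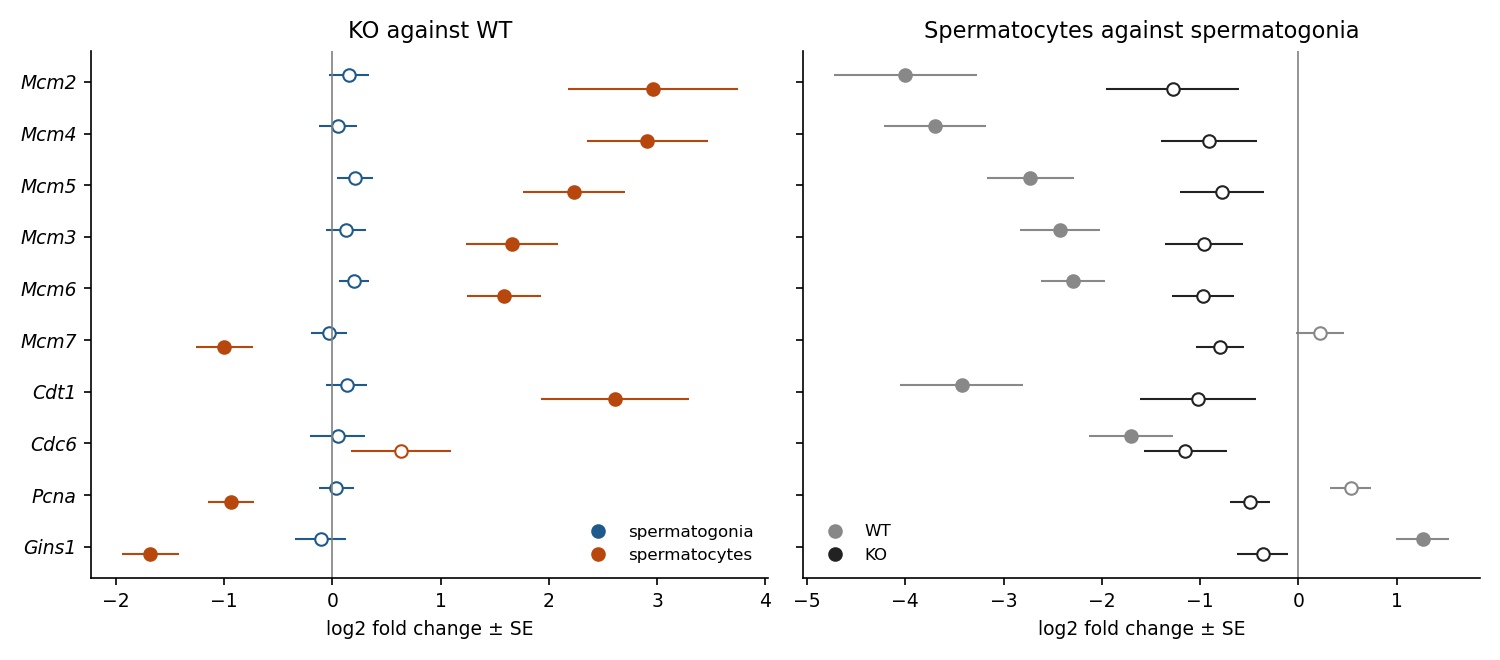
Log2 fold changes ± SE of the 10 genes, KO against WT in spermatogonia and spermatocytes on the left and spermatocytes against spermatogonia in WT and KO on the right; filled points were called at an adjusted p under 0.01. No spermatogonia point and no KO stage point is filled, while 9 genes are filled for KO against WT spermatocytes (-1.68 to 2.96) and 8 for WT spermatocytes against spermatogonia (-4.00 to 1.26).

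The number of calls rested on single libraries. It was 5 without WT replicate 1, 2 or 4, 6 without KO replicate 2 or 3, and 4 (3 higher, 1 lower) when replicates 1 and 4 of each genotype were summed to 1 library. These counts were near the share of all genes called in the same fits. Over all genes 4637 of 22919 were called higher and 6101 lower without WT replicate 1, and 5308 and 6970 of 23050 without KO replicate 2. With replicates 1 and 4 summed it was 3533 and 5225 of 22276. So summed, Mcm2, Mcm3, Cdt1, Mcm7 and Pcna lost their calls, with adjusted p of 0.0113, 0.0141, 0.0119, 0.0431 and 0.0256. Mcm4, Mcm5, Mcm6 and Gins1 were called with each of the 8 libraries left out, and the direction of all 10 genes was the same throughout.

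The libraries that were high in Mcm2 were high in Kit and Stra8, but not in every marker of differentiating spermatogonia. Kit, the receptor of stem cell factor, was at 5.1, 17.2, 48.6 and 4.7 CPM in WT spermatocytes (replicates 1 to 4) and at 81.2, 170, 206 and 77.3 in KO. Stra8, the gene that retinoic acid induces before meiosis, was at 2.8, 16.2, 31.4 and 2.3 CPM in WT and at 54, 152, 158 and 55.7 in KO. Dmrtb1, of the same list, ran the other way in WT, at 1785, 733.7, 525.1 and 1666 CPM, and so did the summed list of 8 genes, at 1803, 800.3, 688.6 and 1684 CPM. In KO the summed list was at 284.1, 742.6, 696.1 and 293.6 CPM, high in replicates 2 and 3 like Mcm2. Of the 8 early meiotic genes, 3 (Prdm9, Dmc1 and Meiob) were called higher and 2 (Spo11 and Tex101) lower in KO spermatocytes, and of the 6 tested genes of undifferentiated spermatogonia 2 (Zbtb16 and Etv5) higher and 1 (Id4) lower, in both lists a share near the 58.8% of all genes. Dmc1, the meiotic recombinase, was at 6.39, 12.09, 43.76 and 5.113 CPM in WT, ordered over the libraries as Mcm2 was, and at 115.5, 114.2, 122 and 128.2 in KO, in another order. Stromal genes were not uniform across the KO libraries. Dcn was at 1808, 465.8, 191.3 and 1575 CPM and the sum of the 6 stromal genes at 3943, 2362, 366.8 and 3361, both highest in replicates 1 and 4, the libraries low in Mcm2. Acta2 (12.05, 86.05, 4.804 and 14.6 CPM), Myh11, Tagln and Col1a1 were highest in replicate 2, which was high in Mcm2. The summed Sertoli level was 1045, 385.7, 282.1 and 972.6 CPM in KO and 154.5, 171, 490.5 and 126.3 in WT. The pachytene gene Ldhc was at 3014 to 6836 CPM in WT and 6.7 to 24.4 in KO. The part of these cells in the licensing gene values was not tested.

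**Figure D4:**
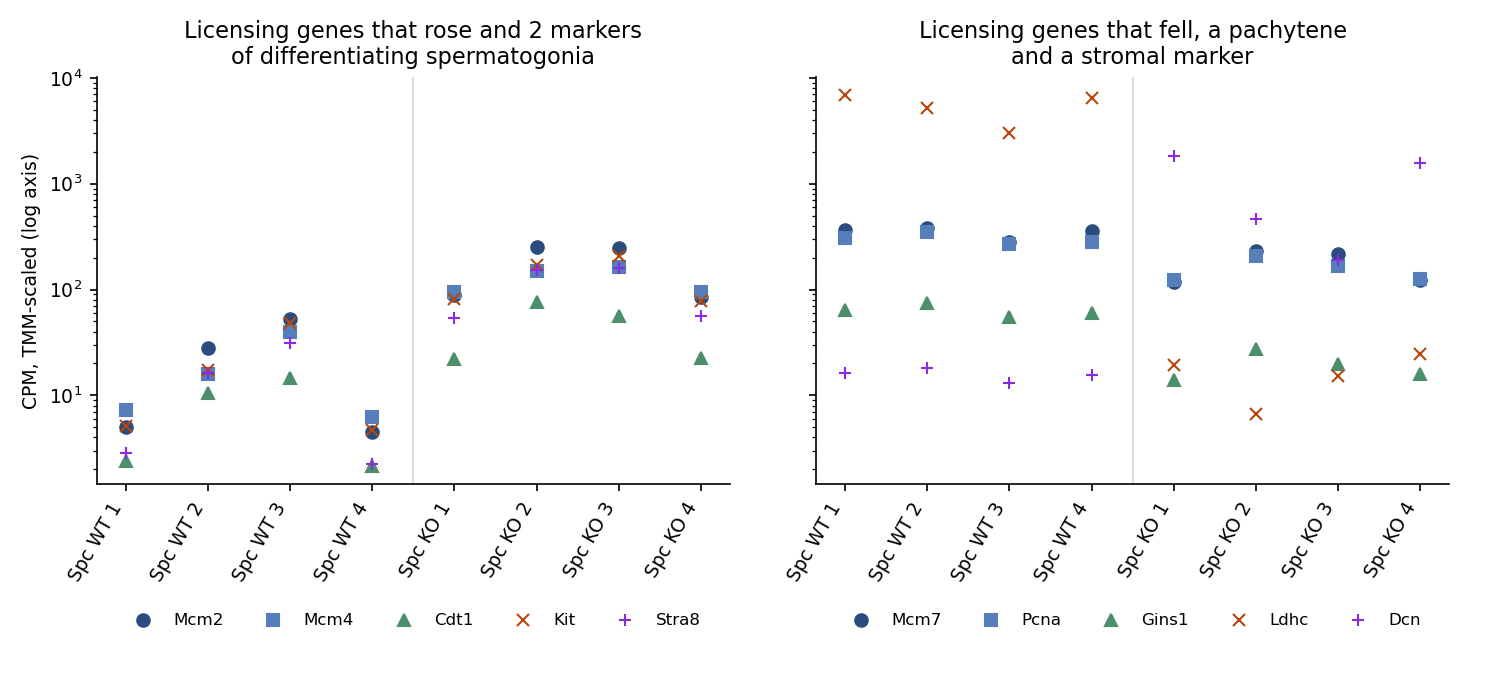
TMM-scaled CPM (log axis) in the 8 spermatocyte libraries, with Mcm2, Mcm4 and Cdt1 beside Kit and Stra8 on the left and Mcm7, Pcna and Gins1 beside the pachytene marker Ldhc and the stromal marker Dcn on the right. Mcm2 and Kit are both highest in replicates 2 and 3 of each genotype, and Gins1 lies at 54.83 to 74.14 in WT and 13.97 to 27.61 in KO.

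Between KO spermatogonia and KO spermatocytes none of the 10 genes was called, where 3.05% of 24340 genes were called, 3.01% higher and 0.037% lower. At an unadjusted p under 0.05, 5 of the 10 passed, all lower. DESeq2 and the fit with spermatocyte replicates 1 and 4 summed called none. All 10 values were below 0, from -0.36 ± 0.26 for Gins1 to -1.28 ± 0.67 for Mcm2, with a median of -0.93 beside 0.02 over all genes. Mcm7 had the smallest adjusted p, 0.0583, with 242.4, 288.6 and 364.6 CPM in KO spermatogonia and 117.8, 230.2, 216.1 and 124.1 in KO spermatocytes. It did not overlap, and neither did Mcm2, Mcm3, Mcm4 and Mcm6, beside 26.4% of all genes. The other 5 overlapped.

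The genotype effect was then compared between the stages by an interaction term over all 14 libraries. Mcm4 was called higher (2.79 ± 0.70, adjusted p = 0.00672) and Gins1 lower (-1.63 ± 0.37, adjusted p = 0.00381), where 25.7% of 24340 genes were called, 11.1% higher and 14.6% lower. The effect on Mcm4 was 0.05 in spermatogonia and 2.91 in spermatocytes, and that on Gins1 -0.11 and -1.68. Pcna (-1.02 ± 0.29), Mcm5 (1.95 ± 0.61), Mcm7 (-1.02 ± 0.35), Mcm6 (1.32 ± 0.46), Cdt1 (2.40 ± 0.85) and Mcm2 (2.72 ± 0.98) had adjusted p of 0.0128 to 0.0358. Mcm3 had 0.0504 and Cdc6 0.474. Library totals moved the median over all genes from 0.20 to 0.90. Under them Mcm4 was called (3.37, adjusted p = 0.00644) and Gins1 was not (-0.87, adjusted p = 0.105), while Mcm7 and Pcna were at -0.25 and -0.27. Relative to that median Gins1 was at -1.77, Mcm7 at -1.15 and Pcna at -1.17. With spermatocyte replicates 1 and 4 summed neither Mcm4 nor Gins1 was called (adjusted p of 0.0108 for Mcm4 and 0.0114 for Gins1). The call of Mcm4 was lost in 7 of the 14 sets with 1 library left out (each spermatogonia library but WT replicate 2, and WT spermatocyte replicates 1 and 2), with its largest adjusted p, 0.0148, without KO replicate 1 of spermatogonia. With the replicate number as a block in spermatogonia, where the numbers were taken to pair, Mcm4 was not called (2.77 ± 0.75, adjusted p = 0.012) and Gins1 was (-1.63 ± 0.36, adjusted p = 0.00466). Gins1 was called in 9 of the 14 sets, with its largest adjusted p, 0.0172, without KO replicate 3 of spermatogonia.

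The other genes of replication were taken from lists of 96 genes in all. In spermatogonia none was called between the genotypes by edgeR or DESeq2, 2 had an unadjusted p under 0.05, and the median was 0.04. In KO against WT spermatocytes 54 of the 96 were called, 34 higher and 20 lower, a share near the 58.8% of all genes, with a median of 0.62 beside 0.11 over all genes. Scaled by library totals the split was 43 higher and 10 lower. With spermatocyte replicates 1 and 4 summed 32 were called, 19 higher and 13 lower, where 3533 of 22276 genes were called higher and 5225 lower. Between WT spermatocytes and spermatogonia 62 were called, 20 higher and 42 lower (median -0.47), where 29.2% of all genes were called higher and 23.3% lower. By library totals 4 were higher and 58 lower (median -1.28), and with the replicates summed 19 were higher and 38 lower. Between KO stages edgeR called none (median -0.48), where 35 had an unadjusted p under 0.05 and DESeq2 called 7. With the replicates summed edgeR also called none. The interaction called 28, 12 higher and 16 lower, also a share near that of all genes (25.7%), and by library totals 21 higher and 4 lower. With the replicates summed it called 11, 3 higher and 8 lower, where 1215 of 23742 genes were called higher and 2306 lower.

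The lists that follow are to be read against the 28% of all genes called higher and the 30.7% called lower in KO against WT spermatocytes. Orc1, the ATPase subunit of ORC, rose from 6.866 ± 5.808 CPM (SD, n = 4) to 42.74 ± 18.33 (2.68 ± 0.64, adjusted p = 0.00371), and of the 6 ORC genes 2 were called higher and 2 lower, near the share of all genes. Gmnn, which encodes the CDT1 inhibitor geminin, was at 91.08 ± 10.54 CPM in WT and 49.03 ± 23.26 in KO and was not called (-0.88 ± 0.33, adjusted p = 0.0345). Of the 13 licensing control genes 4 were called higher and 4 lower, again near it. Ccna2, the S phase cyclin A2, was called in the interaction (2.86 ± 0.77, adjusted p = 0.00943).

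Helicase activation had 2 genes higher and 2 lower of 12. Cdc45, the partner of MCM and GINS, was at 81.11 ± 14.38 CPM in WT and 67.55 ± 23.98 in KO spermatocytes (adjusted p = 0.434). Cdc7, the kinase that fires origins, was not called either (0.66 ± 0.26, adjusted p = 0.04), nor was its activator Dbf4 (0.29 ± 0.22, adjusted p = 0.248). Between the WT stages Cdc7 fell (-1.05 ± 0.26, adjusted p = 0.00278), while Cdc45 was at -0.36 ± 0.26 and Dbf4 at -0.09 ± 0.19, neither called.

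The 3 MCM paralogs, which act in recombination and repair, did not move as 1. Mcm8 fell between the WT stages (-2.25 ± 0.45, adjusted p = 0.000653) and rose in KO spermatocytes from 14.37 ± 12.46 to 54.99 ± 9.252 CPM (1.98 ± 0.50, adjusted p = 0.0054). Its partner Mcm9 rose between the WT stages (1.37 ± 0.22, adjusted p = 0.000141) and fell in KO spermatocytes from 59.55 ± 12.11 to 20.03 ± 0.9418 CPM (-1.55 ± 0.23, adjusted p = 0.000234). Mcm9 was called in the interaction as well (-1.35 ± 0.30, adjusted p = 0.00363). Mcmdc2, the meiotic relative of the MCM genes, was not called in any of the 5 comparisons. Its highest mean was 34.56 ± 8.822 CPM, in KO spermatocytes.

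Among the 96, Pola1, Tyms and Atad5 had the largest called rises in KO spermatocytes. Pola1, the catalytic subunit of the polymerase that starts strands, rose from 1.892 ± 1.937 to 27.03 ± 8.001 CPM in KO spermatocytes (3.87 ± 0.70, adjusted p = 0.000764), and 5 of 12 polymerase and primase genes were called higher and 1 lower. Tyms, thymidylate synthase, rose from 2.237 ± 2.032 to 21.09 ± 6.237 CPM (3.28 ± 0.68, adjusted p = 0.00183), and 4 of 5 genes of nucleotide supply were called higher. Atad5, which unloads PCNA from DNA, rose from 9.168 ± 10.48 to 83.55 ± 6.074 CPM (3.23 ± 0.67, adjusted p = 0.00174).

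The largest called falls were in Rnaseh2a, Aurka and Rpa1. Rnaseh2a, the catalytic subunit of RNase H2, fell from 797.6 ± 407.1 to 27.2 ± 8.248 CPM (-4.87 ± 0.47, adjusted p = 2.01e-05). Rpa1, the large subunit of the single-strand binding protein RPA, which also coats recombining DNA in meiosis, fell from 552.2 ± 243.7 to 97.3 ± 27.93 CPM (-2.50 ± 0.38, adjusted p = 0.000283). Aurka, a mitotic and meiotic kinase, fell from 323 ± 150.8 to 54.65 ± 8.58 CPM (-2.56 ± 0.36, adjusted p = 0.000184). Of the chromatin assembly genes 2 of 4 were called lower, of the mitotic genes 4 of 10 higher and 3 lower, of the clamp loading genes 3 of 12 higher and 2 lower, and of the single-strand binding genes 2 of 6 higher and 1 lower.

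E2F and pocket protein genes had 7 of 13 called higher and 2 lower in KO against WT spermatocytes, with a median of 1.5. Between the WT stages, where 23.3% of all genes were called lower and 29.2% higher, 7 were called lower and none higher. E2f3 fell from 43.33 ± 15.45 CPM (SD, n = 3) to 3.281 ± 3.273 (-3.71 ± 0.62, adjusted p = 0.000172) and E2f2 from 38.81 ± 18.99 to 3.007 ± 2.051 (-3.68 ± 0.65, adjusted p = 0.000264). Atad5 fell alongside them (-3.65 ± 0.61, adjusted p = 0.000165). Rnaseh2a (4.24 ± 0.42, adjusted p = 7.97e-06), Aurka (2.50 ± 0.34, adjusted p = 3.84e-05) and Ccnb2, a cyclin of the G2 to M transition (1.94 ± 0.20, adjusted p = 9.09e-06), had the largest rises.

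**Figure D5:**
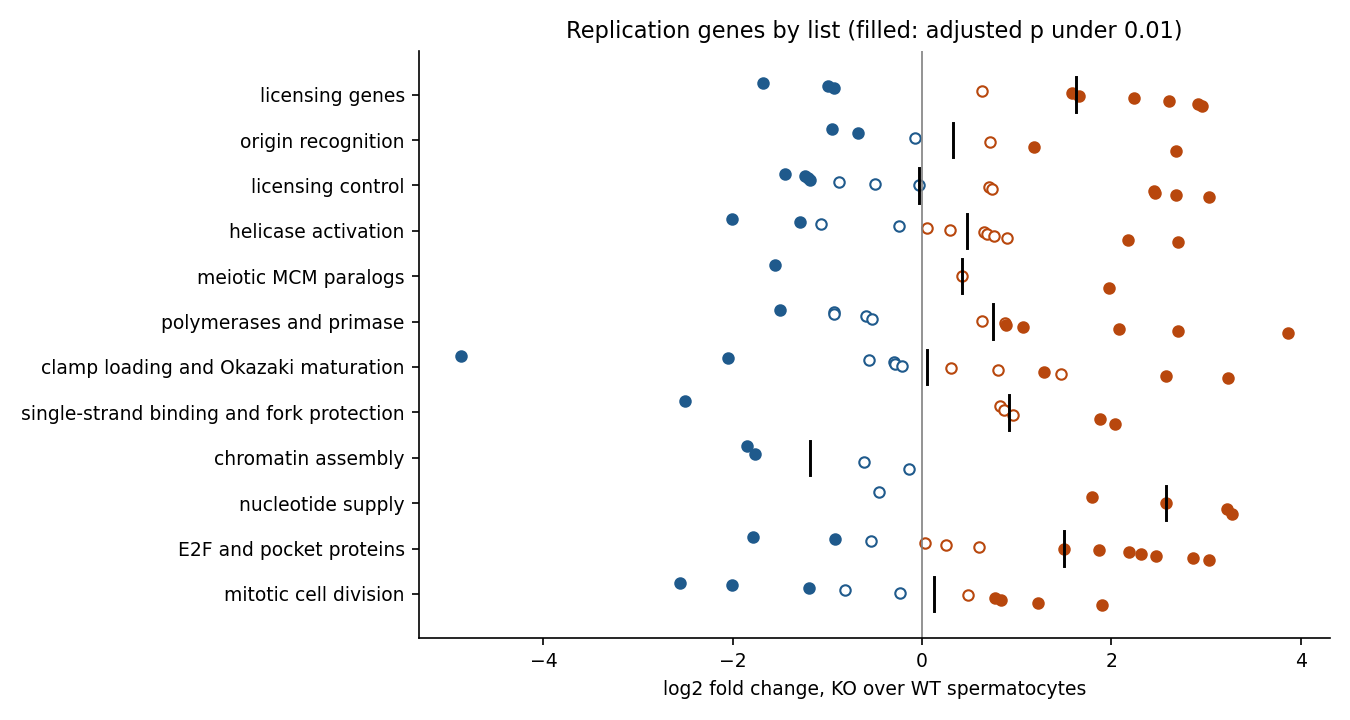
Log2 fold changes of KO over WT spermatocytes for the licensing genes and the 96 other replication genes, 1 line per list and 1 point per gene, filled where called at an adjusted p under 0.01, with a bar at the median of the list. Nucleotide supply has the highest median (2.58) and chromatin assembly the lowest (-1.19).

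In the interaction, Pola1 (3.71 ± 0.87, adjusted p = 0.0045) and Atad5 (3.20 ± 0.83, adjusted p = 0.0076) were, with Ccna2, the largest positive terms among the called genes of the 96. Tyms (2.97), E2f3 (2.97) and Tk1 (2.96) had larger terms than Ccna2 but were not called. Rnaseh2a (-4.85 ± 0.53, adjusted p = 0.000153), Rpa1 (-2.55 ± 0.47, adjusted p = 0.00111) and Aurka (-2.43 ± 0.44, adjusted p = 0.00106) were the largest negative ones among the called.

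Across the 14 libraries, 7 licensing genes followed the mean pattern of the others. Pearson correlations with the mean of the other 9 (standardized log2 CPM) ran from 0.745 for Mcm4 to 0.871 for Mcm3 among these 7. They were 0.146 for Mcm7, -0.111 for Pcna and -0.413 for Gins1. These are descriptions over libraries that fall into 4 groups. Of 16747 genes outside the lists with a mean of at least 1 CPM, those most like the mean pattern of all 10 included Prpsap2 (0.992), Ap2a2 (0.986), Hspa14 (0.983) and Rmc1 (0.983). This mean blends the 7 genes with Mcm7, Pcna and Gins1, so a gene near it need not move as any 1 of the 10. Prpsap2 averaged 99.57 CPM in WT spermatogonia, 109.3 in KO, 52.24 in WT spermatocytes and 64.87 in KO. For Mcm2 the means were 359.1, 408.3, 22.4 and 168.4 CPM in the same order.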

How the data were processed

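RNA of 14 sorted germ cell libraries was measured, 3 KO and 3 WT of spermatogonia and 4 KO and 4 WT of spermatocytes. Reads were trimmed with cutadapt 4.0 and mapped by the authors with STAR 2.7.3a (GRCm38, GENCODE M25, up to 100 places a read). The deposited raw counts came from TEtranscripts, run by strand, and cover genes and subfamilies of transposable elements. Reads of near-identical copies are shared among them. The deposited fold changes, p-values and TPM values of single element copies come from the authors' own comparisons or concern no gene, and were not used. A further spermatogonia library per genotype, left out by the authors for RNA quality, was not analysed here. Columns numbered 4 belong to the spermatogonia samples titled replicate 3.

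The quasi-likelihood test of edgeR 4.0.16 was run in R 4.3.3, after filterByExpr and with TMM factors, with Benjamini-Hochberg adjustment over all features and calls at an adjusted p under 0.01. KO was compared with WT within each stage, and stages and the interaction in 1 fit of all 14 libraries, on features found in both tables. Total counts were 40555726 to 53323651 per library. Deviations of same-numbered libraries correlated at 0.52, 0.17 and 0.18 in spermatogonia, where the numbers were taken to pair, but at 0.08, 0.21, -0.01 and 0.12 in spermatocytes. In spermatogonia KO replicate 2 and WT replicate 3 gave 0.26, above the same-numbered 0.17, so the pairing is not settled. The fits were tested on simulated data. Named genes were the 10 licensing genes, 8 fixed others (Gmnn, Cdc45, Cdc7, Dbf4, Orc1, Mcm8, Mcm9 and Mcmdc2), in each comparison the 3 called list genes that rose and the 3 that fell most, and the 5 genes most like the mean pattern (log2 CPM with a pseudocount of 0.5, mean of at least 1 CPM), of which 1 is not reported here. Members and lists were chosen with earlier results of these data known. Alternatives were DESeq2 1.42.0 (Wald test, size factors), library totals, TMM over genes alone, a threshold of 0.05, no filter, a minimum mean count of 50, the replicate block, each library left out, spermatocyte replicates 1 and 4 summed, other sets of libraries and another gene length. Sequences are from RefSeq (GRCm38.p6), positions from GENCODE M21. Python 3.11.15, pandas 2.3.3 and matplotlib 3.10.9 were used for tables and plots.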

Additional observations from a re-analysis of the deposited data

Results flagged for a closer look

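Mcm4 and Gins1 were the licensing genes called in the interaction test of edgeR, where 25.7% of 24340 genes were called. Pcna, Mcm5, Mcm7, Mcm6, Cdt1 and Mcm2 missed the threshold of 0.01, with adjusted p of 0.0128 to 0.0358. For Mcm4 the effect in spermatocytes was higher than that in spermatogonia by 2.79 on the log2 scale, and for Gins1 the difference was -1.63. With the replicate number as a block in spermatogonia, where the numbers were taken to pair, Mcm4 was no longer called (adjusted p = 0.012 in edgeR), while Gins1 was (adjusted p = 0.00466). With library totals it was Gins1 that lost its call (-0.87, adjusted p = 0.105) and Mcm4 that kept it (3.37, adjusted p = 0.00644), and both lost it with spermatocyte replicates 1 and 4 summed (adjusted p of 0.0108 and 0.0114) and with some single libraries left out (Mcm4 in 7 and Gins1 in 5 of 14 sets).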

How the results depend on the processing

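Directions held for all 10 genes in KO against WT spermatocytes, between the KO stages and in the interaction under every alternative run. Between the WT stages library totals turned Mcm7 to -0.61 and Pcna to -0.29. In spermatogonia, where nothing was called, leaving out 1 library gave log2 values of -0.01 to 0.28 for Mcm3, -0.06 to 0.22 for Mcm4, -0.19 to 0.12 for Mcm7, -0.09 to 0.29 for Cdc6, -0.03 to 0.30 for Cdt1, -0.07 to 0.17 for Pcna and -0.28 to 0.05 for Gins1, and Mcm7 was at 0.00 in the fit of all 14 libraries. Licensing genes called in KO against WT spermatocytes numbered 9, 5 to 9 with 1 library left out and 4 with replicates 1 and 4 summed. With those replicates summed, 3533 of 22276 genes were called higher and 5225 lower. Other replication genes called there numbered 54 and, so summed, 32. Between the KO stages 0 other replication genes became 7 at an adjusted p under 0.05, 7 in DESeq2, 1 with a mean count of at least 50, 1 in the KO libraries alone and 0 to 2 with 1 library left out. Licensing genes called in the interaction numbered 2, but 8 at an adjusted p under 0.05, 4 in DESeq2 and 1 with library totals. They numbered 0 to 7 with 1 library left out (0 without spermatogonia KO replicate 2 or 3 or WT replicate 1 or 3, 7 without WT spermatocyte replicate 3) and 0 with replicates 1 and 4 summed. Of all 24340 genes the interaction called 5728 higher and 5463 lower at that relaxed threshold, and 4840 and 5025 in DESeq2. The 4 of 10 in DESeq2 were thus near the share of all genes. Without WT spermatocyte replicate 3, 4785 of 23994 genes were called higher and 4208 lower. Other replication genes in the interaction numbered 28, but 53, 47, 14 to 48 and 11 at the relaxed threshold, in DESeq2, with 1 library left out and with the summed replicates. The cause of these changes was not tested, beyond the fewer libraries of the smaller sets. With the replicate number as a block, the interaction called 8 licensing genes and KO against WT spermatocytes 8. So blocked, 2686 of 24340 genes were called higher and 3291 lower in the interaction, and 5294 and 6145 of 21919 in spermatocytes. A block on spermatogonia alone, chosen after seeing the data, left 1 in the interaction, Gins1, and Mcm4 lost its call. In spermatocytes the numbers were not taken to pair the libraries. In WT spermatogonia the highest over the lowest of the 6 MCM genes per length was 1.46, and 1.65 with the longest transcript as length. Over all genes, library totals gave 8074 higher and 4880 lower calls in KO against WT spermatocytes in place of 6145 and 6740, 4541 and 8724 between the WT stages in place of 7103 and 5674, and 4252 and 1733 in the interaction in place of 2690 and 3561. DESeq2 called 136 genes higher and 378 lower in spermatogonia in place of 8 and 1, and 2093 and 244 between the KO stages in place of 733 and 9.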
